A study of Mus musculus with 8 samples.

Results

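The genes described here encode the proteins of the cytosolic ribosome. They were chosen by symbol alone: names of the form Rpl or Rps followed by a number, together with Rplp0, Rplp1, Rplp2 and Rpsa, leaving out the rows named as pseudogenes (-ps) and the Rps6k kinases. This gave 89 genes of the 43346 gene identifiers in the count tables, with 50 Rpl genes, the 3 Rplp genes and 36 Rps genes including Rpsa. All 89 had at least 1 read. Despite their names, 5 of them (Rps3a2, Rps3a3, Rps12l1, Rpl6l and Rps4l) are annotated as processed pseudogenes in Gencode M21, and the other 84 as protein coding.

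RNA was sequenced from notochord-derived cells taken from the mouse line Shh-cre;ROSA:YFP, either at embryonic day 12.5 (E12.5) or at birth (P0). Each stage had 4 litters, and 1 sample was the pool of the animals of 1 litter. In this line a Cre recombinase driven by Shh switches on a yellow fluorescent protein (YFP) in Shh-expressing cells and in all their progeny. The same line was used at both stages. Notochords at E12.5 were dissected whole, without sorting, whereas nucleus pulposus (NP) cells at P0 were shaken out of the disc and sorted for YFP, so that stage and isolation method cannot be told apart. Litters are named as in the labels: NDP10.2, NPD3, NPD4 and NPD9.2 at E12.5 and NPD26, NPD27, NPD28 and NPD30 at P0.

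A ribosome has a small subunit, which reads the messenger RNA, and a large subunit, which joins the amino acids, and each is built from ribosomal RNA and a set of proteins that are needed in equal numbers. The mRNAs of these proteins are among the most abundant in growing cells. Most begin with a C followed by a run of C and T at the cap, the 5′ terminal oligopyrimidine (TOP) tract, through which the protein LARP1 and the kinase mTORC1 control their translation. Ribosomal protein genes also have many processed pseudogenes, and a read that matches a gene and its copies equally well cannot be assigned to either.

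Reads counted on genes numbered 4442775 to 7180221 per litter at E12.5 and 6371842 to 8904050 at P0, and 3 counts, the smallest signal taken as seen, equalled 0.337 to 0.675 CPM, the unit in which counts are scaled to library size. Counting error alone is covered by this floor. Reads aligned to more than 1 place were tallied apart and not counted on any gene, and made up 26.3% to 33.7% of the tally at E12.5 and 31.0% to 33.7% of that at P0. Reads that fell on more than 1 gene made up 10.6% to 17.5% at E12.5, highest in NDP10.2 and NPD9.2, and 7.07% to 10.5% at P0. Of the 10 notochord and NP markers, Shh and Foxa1 were lower and Krt19 and Cd24a higher at P0, and Noto was at or below the floor at both stages. Leukocyte markers passed the test as higher at P0 in 10 of 10 genes and neutrophil markers in 9 of the 9 tested. Markers of red blood cells were lower at P0 in 6 of 10 genes and those of the sclerotome, the tissue around the notochord, in 7 of 7. Of the tested markers of B lymphocytes 4 of 5 and of osteoblasts 5 of 5 were higher at P0, and 1 of 5 of the neural tube was lower. In such bulk samples, fewer cells of a type and less RNA per cell cannot be told apart.

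The 89 genes together took a small share of the counts, and a somewhat smaller one at P0. Their share was 1.48% in NDP10.2, 1.55% in NPD3, 1.63% in NPD4 and 1.42% in NPD9.2, which gave 1.52% ± 0.0901 (SD, n = 4) at E12.5. At P0 it was 1.44% in NPD26, 1.26% in NPD27, 0.821% in NPD28 and 1.25% in NPD30, or 1.19% ± 0.264 (SD, n = 4). The ranges of the stages overlapped, since NPD26 lay above NPD9.2, and NPD28 stood well below the other P0 litters. When the 100 other genes with the largest shares were left out of the total, the share was 2.58% ± 0.103 at E12.5 and 1.84% ± 0.445 at P0, and the ranges no longer overlapped. With the mitochondrially encoded and hemoglobin genes left out instead, it was 1.80% ± 0.148 at E12.5 and 1.36% ± 0.332 at P0, and the ranges still overlapped, with NPD26 at 1.68% and NDP10.2 at 1.67%. The rows named as ribosomal protein pseudogenes, of which 192 of 257 had a count, took 14.7 to 16.4 counts for every 100 on the 89 genes at E12.5 and 14.8 to 16.3 at P0.

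**Figure D1:**
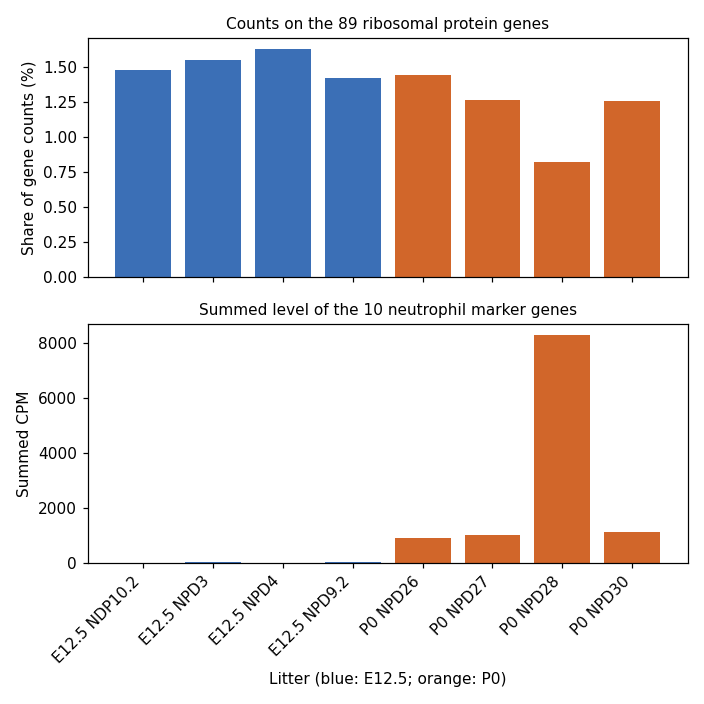
Share of gene counts on the 89 ribosomal protein genes in percent (upper panel) and summed CPM of 10 neutrophil marker genes (lower panel) in each litter, E12.5 in blue and P0 in orange. NPD28 has the lowest share, 0.821%, and the highest neutrophil sum, 8279 CPM. Its sums of B lymphocyte and proliferation markers, not shown, were the highest too, and its sum of sclerotome markers the lowest.

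Litter NPD28 also stood apart in its markers. The 10 neutrophil markers summed to 7.78 to 18.5 CPM at E12.5, to 913 in NPD26, 1004 in NPD27 and 1119 in NPD30, and to 8279 in NPD28. The 10 general leukocyte markers summed to 59.9 to 122.2 CPM at E12.5, and to 3120 in NPD26, 3691 in NPD27, 3936 in NPD28 and 349 in NPD30. None of the 10 neutrophil markers was at 0 counts in any P0 litter, while 1 to 4 of them were at 0 in each E12.5 litter. NPD28 also had the highest sum of the 8 B lymphocyte markers, 569 CPM against 109 to 150 in the other P0 litters. At E12.5 this sum was 362 CPM in NPD4, above those other P0 litters, and 46.6 to 58.7 in the other E12.5 litters. The sum of the 7 sclerotome markers was lowest in NPD28, 6.24 CPM against 15.3 to 21.5 in the other P0 litters. At E12.5, NPD4 stood apart in the 8 neural tube markers, with 1586 CPM against 83.5 to 136 in the other E12.5 litters. The P0 litters lay between, at 300 to 824 CPM. The part of any of these cell types in the ribosomal protein values was not tested. Values without NPD28 are given beside the counts they change. Markers of proliferation gave no call between the stages in either direction among 8 genes. Their sum was highest in NPD28, at 1642 CPM, against 643 to 1029 in the other P0 litters and 791 to 1120 at E12.5.

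The stages were compared with edgeR's quasi-likelihood F-test on TMM-scaled counts, with Benjamini-Hochberg adjustment over all 15467 genes that passed a filter on low counts. An adjusted p under 0.05 made a call, and fold changes are given as log2 of P0 over E12.5. Of the 89 genes, 83 passed the filter. The other 6 (Rpl3l, Rpl10l, Rpl23a, Rpl24, Rpl39l and Rps29) had too few counts to be tested.

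The ribosomal protein mRNAs as a group lay lower at P0 by their median, and few of them passed the test. The log2 fold change on the TMM scale was negative for 72 and positive for 11 of the 83 genes. Over all genes tested, 7485 were negative and 7982 positive. The median of the 83 genes was -0.42, against 0.04 over all genes tested, and their quartiles were -0.64 and -0.23. In the test, 6 of the 83 genes (7.23%) were lower at P0, where 12.0% of all genes tested were lower. Only Rpl3 (1.2%) was higher, where 16.0% of all genes were higher, so that 8.43% of the ribosomal protein genes and 27.9% of all genes were called in either direction. At an unadjusted p under 0.05 there were 22 of the 83 genes (26.5%), against 39.7% of all genes. DESeq2 called 15 genes lower (18.1%), where it called 15.0% of all genes lower, and 1 higher, against 18.1% of all genes. The share of ribosomal protein genes called lower was thus below that of all genes with edgeR and above it with DESeq2. Every P0 litter lay below every E12.5 litter in 21 genes (25.3%), against 14.4% of all genes tested, and above in Rpl3 alone, against 15.5%. Without NPD26 the former count was 34 genes (41.0%), against 16.3% of all genes.

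**Figure D2:**
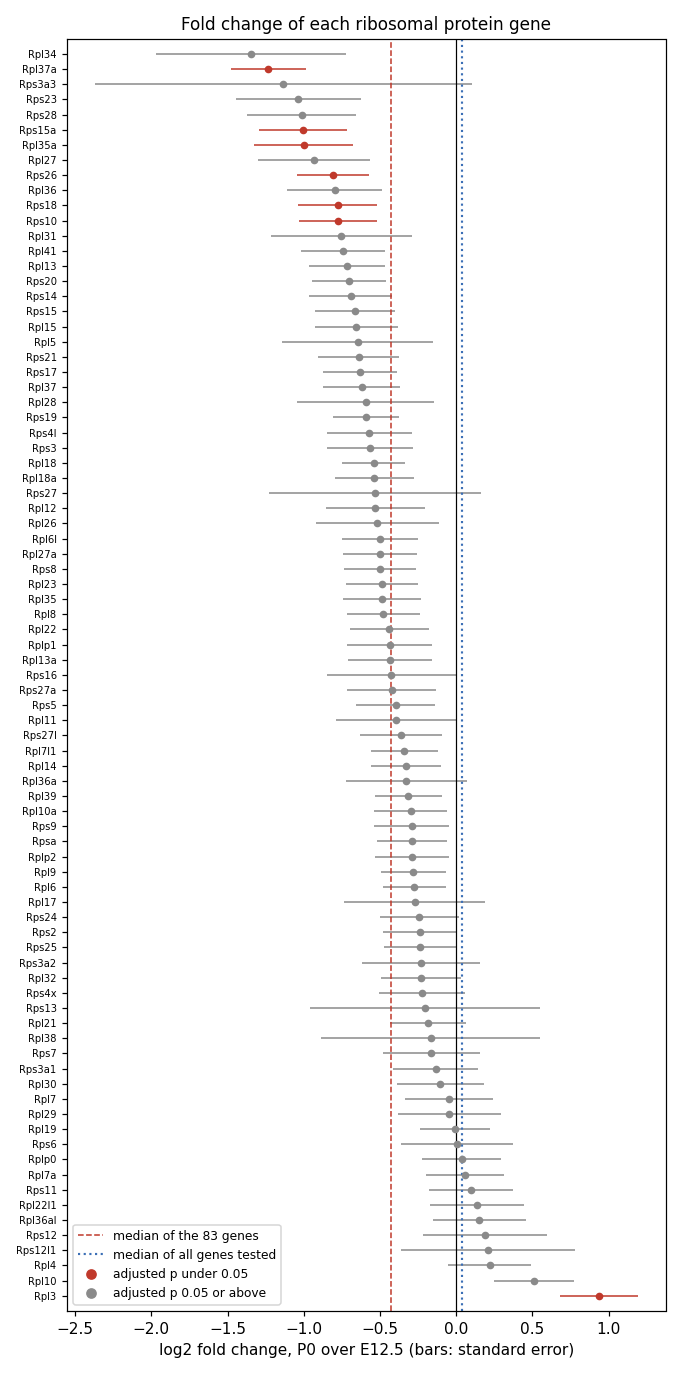
log2 fold change, P0 over E12.5, with its standard error for each of the 83 genes tested. The dashed line is their median (-0.42) and the dotted line that of all genes tested (0.04). The 7 genes past an adjusted p of 0.05 are in red, 6 of them to the left of 0 and Rpl3 to the right.

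The shift was uneven among the P0 litters. Relative to the mean of the 8 litters on the log2 scale, the median of the 83 genes was 0.28 in NDP10.2, 0.20 in NPD3, 0.10 in NPD4 and 0.26 in NPD9.2. It was 0.07 in NPD26, -0.08 in NPD27, -0.65 in NPD28 and -0.14 in NPD30. The E12.5 litters all lay above the P0 litters, but NPD26 was close to NPD4. NPD28 was the lowest P0 litter for 63 of the 83 genes, against 4112 of all 15467 genes tested. NPD26 was the highest for 50 of the 83 genes, a count that was not made over all genes. Without NPD28 the median fold change was -0.32 on the log2 scale, 67 of the 83 genes were negative and 3 genes (Rpl35a, Rpl37a and Rps15a) were called lower (3.61%), where 10.8% of all genes were. Rpl3 was the 1 gene called higher without NPD28, where 13.6% of all genes were. Without NPD28 the remaining P0 litters lay below all E12.5 litters in 21 genes (25.3%), where 17.1% of all genes did.

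**Figure D3:**
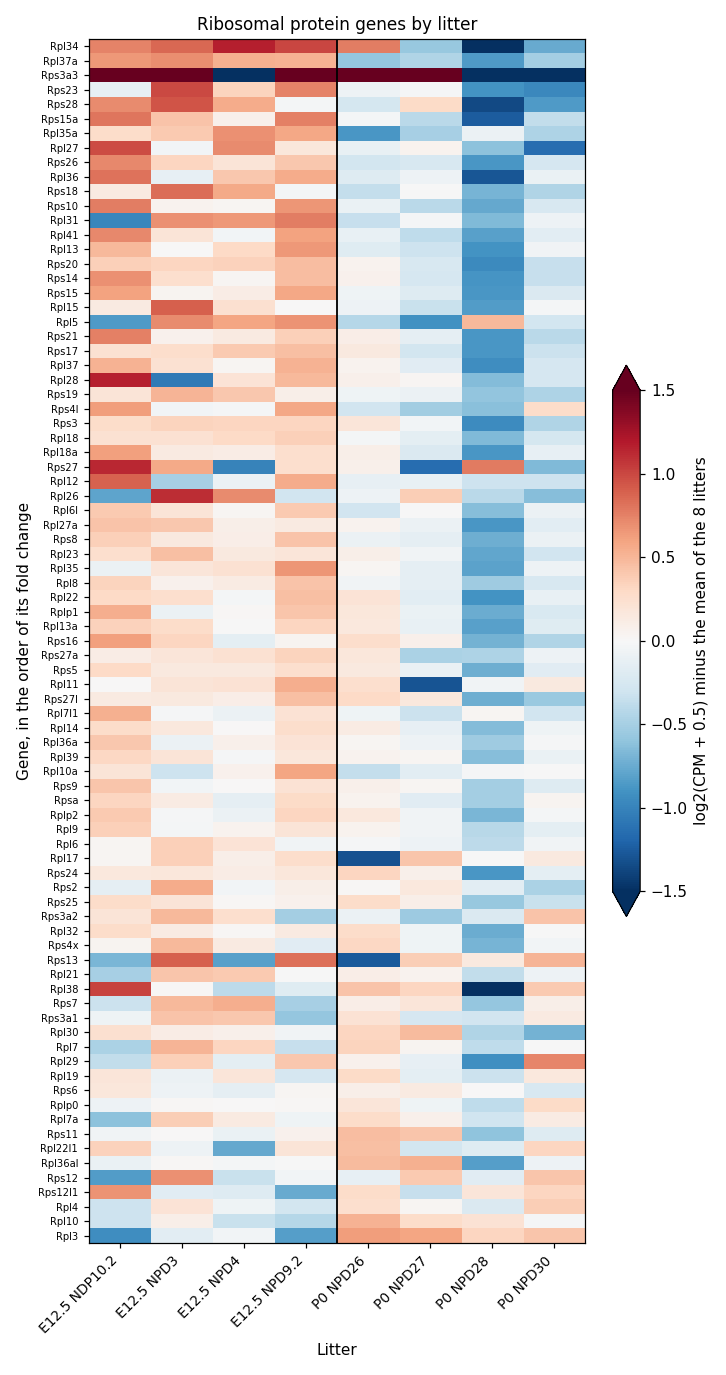
log2(CPM + 0.5) of each of the 83 genes in each litter, minus the mean of that gene over the 8 litters. Genes are in the order of their fold change, the black line parts the stages, and colours are full at 1.5 on either side of 0. The column of NPD28 is the bluest, and Rps3a3 near the top splits the litters of both stages.

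Of the 30 tested genes of the small subunit, leaving out pseudogenes and like-named paralogs, 4 fell (13.3%), close to the 12.0% of all genes tested. The median log2 fold change of the 30 genes was -0.46, with 27 of 30 negative. Over the 41 such genes of the large subunit it was -0.44, with 37 of 41 negative, 2 called lower and 1 higher. In either direction 7.32% of these 41 genes were called, where 27.9% of all genes tested were. The medians of the subunits lay close to each other, and their difference was not tested.

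Rpl37a, a zinc finger protein of the large subunit (chr1:72711290-72713813, plus strand, Gencode M21 on GRCm38), fell most clearly. Its level was 22.9, 23.6, 21.0 and 20.9 CPM in the E12.5 litters NDP10.2, NPD3, NPD4 and NPD9.2, and in NPD26, NPD27, NPD28 and NPD30 at P0 it was 9.44, 10.4, 7.77 and 10.01 CPM. All P0 litters lay close together, at less than any E12.5 litter. The log2 fold change was -1.23 (SE 0.246, adjusted p = 0.00401, edgeR), a level 2.35-fold higher at E12.5. It passed in all 8 fits that left out 1 litter.

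Rps15a, a protein of the small subunit (chr7:118104372-118116188, minus strand), was at 223, 172, 135 and 216 CPM at E12.5, and at 125, 96.0, 53.3 and 98.4 CPM at P0. The groups did not overlap, though NPD4 and NPD26 were near each other and NPD28 was lowest. The log2 fold change was -1.0 (SE 0.289, adjusted p = 0.0242, edgeR), and it passed in 5 of the 8 fits without 1 litter.

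Rpl35a, a large subunit protein mutated in some patients with Diamond-Blackfan anaemia (chr16:33056453-33060189, plus strand), was at 9.67, 10.5, 13.1 and 12.05 CPM at E12.5 and at 4.09, 5.48, 7.42 and 5.61 CPM at P0. Here NPD28 was the highest of the P0 litters, unlike in the other genes that fell. Its log2 fold change was -1.0 (SE 0.325, adjusted p = 0.0407, edgeR), but it passed in only 2 of the 8 fits without 1 litter.

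Rps26, a small subunit protein near the path of the mRNA and another Diamond-Blackfan anaemia gene (chr10:128624534-128626747, minus strand), was at 308, 233, 213 and 247 CPM at E12.5. At P0 it was at 155, 157, 102 and 157 CPM, with 3 litters almost level and NPD28 below them. The log2 fold change was -0.81 (SE 0.235, adjusted p = 0.0253, edgeR), passing in 6 of the 8 fits without 1 litter.

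Rps18 (chr17:33951999-33956001, minus strand), which sits on the head of the small subunit, was at 102, 167, 138 and 91.0 CPM at E12.5 and at 72.8, 93.0, 57.2 and 67.9 CPM at P0. The groups overlapped slightly, as NPD27 lay above NPD9.2. Its log2 fold change of -0.78 (SE 0.259, adjusted p = 0.0446, edgeR) passed in 3 of 8 fits without 1 litter.

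Rps10 (chr17:27630418-27636669, minus strand), also on the head of the small subunit, was at 208, 127, 124 and 193 CPM at E12.5 and at 114, 92.3, 71.5 and 104 CPM at P0. NDP10.2 and NPD9.2 lay well above the other E12.5 litters, which were near the P0 range without reaching it. Its log2 fold change of -0.77 (SE 0.256, adjusted p = 0.0437, edgeR) passed in 3 of 8 fits. An annotated readthrough gene, RPS10-NUDT3, and Gm15420 overlap 28.7% of its exon bases, so its reads may be split among them.

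Rpl3, a large subunit protein that reaches towards the peptidyl transferase centre (chr15:80077791-80091868, minus strand), was the 1 gene that rose. Its level was 21.7, 37.5, 40.5 and 23.4 CPM at E12.5 and 64.8, 63.3, 52.6 and 56.1 CPM at P0. Every P0 litter lay above every E12.5 litter, and NDP10.2 and NPD9.2 were the lowest. The log2 fold change was 0.94 (SE 0.256, adjusted p = 0.0185, edgeR), a 1.92-fold higher level at P0. It was not called when NDP10.2 (adjusted p = 0.0576) or NPD9.2 (0.0676) was left out, and was 0.56 (adjusted p = 0.140) without both. Of the 100-base windows of its main transcript 79.4% also occur in other genes, 7 in all, and reads from those windows match more than 1 gene.

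**Figure D4:**
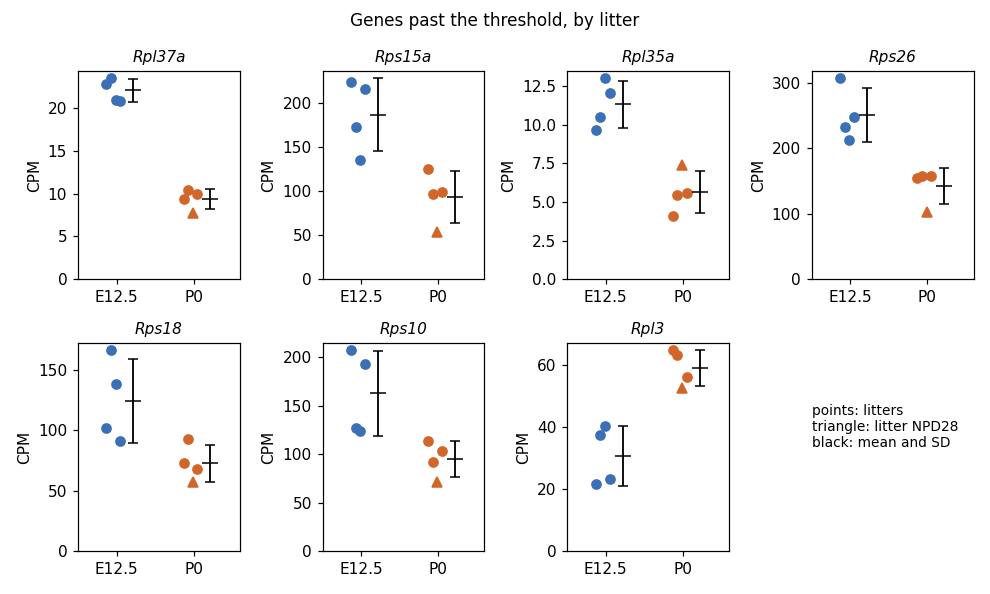
CPM in each litter for the 7 genes called between the stages, E12.5 in blue and P0 in orange, with the mean and SD of the 4 litters in black and NPD28 as a triangle. In Rpl3 all P0 litters (52.6 to 64.8 CPM) lie above all E12.5 litters (21.7 to 40.5), and in Rps18 alone the stages overlap.

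The 5′ ends of the called genes were read from RefSeq promoters (GRCm38.p6), which held 64 of the 89 genes and no entry for Rpl3. They are shown because the TOP tract is the feature through which these mRNAs are controlled together. Each line gives 15 bases before and 15 from the annotated start on, 5′ to 3′, with capitals for a C followed by at least 4 C or T that begins within 5 bases of that start. The last pair, Rplp0 and Rpl4, are abundant members that were not called, and neither has the tract within 5 bases of that start. Rpl4 has a C followed by a run of C and T further upstream, among the bases shown. This pair does not stand for all such members: Rpl13a and Rps9, also abundant and not called, have the tract within 5 bases of a start.
Rpl37a, chr1:72711245-72711274, plus strand: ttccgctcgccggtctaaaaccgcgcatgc
Rps15a, chr7:118116133-118116162, minus strand: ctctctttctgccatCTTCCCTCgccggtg
Rpl35a, chr16:33056467-33056496, plus strand: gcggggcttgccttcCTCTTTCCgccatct
Rps26, chr10:128626492-128626521, minus strand: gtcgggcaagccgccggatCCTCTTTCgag
Rps18, chr17:33955651-33955680, minus strand: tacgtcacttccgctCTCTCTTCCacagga
Rps10, chr17:27635230-27635259, minus strand: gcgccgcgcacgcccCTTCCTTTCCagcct
Rplp0, chr5:115559452-115559481, plus strand: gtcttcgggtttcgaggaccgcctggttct
Rpl4, chr9:64173372-64173401, plus strand: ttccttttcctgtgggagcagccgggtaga

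Rps15a, Rps18 and Rps10 have the tract exactly at the annotated start, and Rps26 has it from the fifth base on. Rpl35a had 3 annotated starts. The start shown for it was chosen as that nearest to a tract, which lies exactly there, and its other starts are not shown. The strand searched was that of the gene. Of the 64 genes, 29 (45.3%) held such a tract within 5 bases of a start, against 21.2% of the 27025 genes in the table, and 13 (20.3%) held it exactly at a start, against 3.01%. No match says only that these letters are not in this window, since an annotated start can be off by some bases. The median log2 fold change was -0.50 over the 29 tested genes with the tract and -0.34 over the 31 tested genes without it. Of the 29 genes 5 were called lower and of the 31 genes 1, where 12.0% of all genes tested were. The 23 tested genes with no entry had a median of -0.42, with 0 called lower and 1 higher. The difference between these groups was not tested.

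A 2nd fit asked which genes departed from the family as a whole, by scaling each library to its summed counts on the 83 genes. On this scale 3 of the 83 genes were called, where 29.2% of all genes were. The scaling itself places the 83 genes near 0, with a median of -0.08, and moved the median of all genes to 0.42. The 29.2% is therefore not a like measure for the 83 genes. Rpl3 was higher by 1.29 (log2 fold change relative to the family, SE 0.315, adjusted p = 0.0089, edgeR). Rpl10, a late-joining protein of the large subunit, was higher by 0.88 (SE 0.307, adjusted p = 0.0476, edgeR), with 12.03, 16.0, 11.8 and 11.1 CPM at E12.5 and 21.9, 18.3, 17.5 and 14.9 CPM at P0 on the TMM scale, where NPD30 fell within the E12.5 range. Rpl37a was lower, at -0.87 (SE 0.285, adjusted p = 0.0371, edgeR). In the fits that left out 1 litter Rpl3 was called each time, Rpl10 once and Rpl37a once. Of the windows of Rpl10, 84.4% also occur in other genes.

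The lowest fold change of all belonged to Rpl34, a large subunit protein, which did not pass. It was at 55.4, 60.3, 74.1 and 66.1 CPM at E12.5 and at 56.5, 22.1, 3.06 and 19.3 CPM at P0. NPD26 lay within the E12.5 range and NPD28 far below the rest, giving -1.35 (SE 0.623, adjusted p = 0.137, edgeR). Rps23, at the decoding centre of the small subunit, had -1.03 (adjusted p = 0.0836), and Rps28, near the mRNA exit, had -1.01 (adjusted p = 0.0550). Among the highest, the large subunit protein Rpl4 had 0.22 (adjusted p = 0.588), with 862 to 1236 CPM at E12.5 and 917 to 1381 at P0, and Rps12 had 0.19 (adjusted p = 0.768).

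The pseudogene Rps3a3 split the litters without regard to stage. It was at 75.02, 76.5, 2.30 and 183 CPM in NDP10.2, NPD3, NPD4 and NPD9.2, and at 74.7, 73.1, 1.18 and 4.09 CPM in NPD26, NPD27, NPD28 and NPD30. NPD4, NPD28 and NPD30 were far below all the other litters. The log2 fold change of -1.14 (SE 1.24, adjusted p = 0.539, edgeR) therefore has a very wide error. Its protein-coding relative Rps3a1 showed no such split, at 212 to 426 CPM at E12.5 and 261 to 368 at P0.

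None of the 3 proteins of the stalk, which recruits elongation factors to the large subunit, passed the test. Rplp0 was at 977, 1044, 1035 and 1044 CPM at E12.5 and at 1168, 981, 794 and 1261 CPM at P0. The P0 litters lay on both sides of the E12.5 litters, and the log2 fold change was 0.04 (SE 0.260, adjusted p = 0.934, edgeR), or -0.10 under upper quartile scaling. Rplp1 had -0.44 (adjusted p = 0.272) and Rplp2 had -0.29 (adjusted p = 0.410).

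Several members are known for roles outside the ribosome or in mouse development. Rpl38, whose loss in mice disturbs the axial skeleton through the translation of Hox mRNAs, was at 1.21 to 4.01 CPM at E12.5 and at 0.235 to 2.52 at P0, close to the floor (log2 fold change -0.17, SE 0.719). Rpl24, the gene of the Belly spot and tail mouse, was not tested, with 0 to 1.45 CPM at E12.5 and 0 to 2.04 at P0. No difference between the stages was detectable for either gene at this depth. Of the windows of Rpl24 80.1% occur in other genes, and Gm28037 overlaps 47.0% of its exon bases.

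Rps19, the most often mutated gene in Diamond-Blackfan anaemia, was at 136, 169, 158 and 127 CPM at E12.5 and at 114, 112, 79.2 and 86.6 CPM at P0. No P0 litter reached the E12.5 range, but the log2 fold change of -0.59 (SE 0.218) did not pass (adjusted p = 0.0655, edgeR). Rps20 behaved alike, with 243 to 270 CPM at E12.5, 100.4 to 202 at P0 and -0.70 on the log2 scale (adjusted p = 0.0529). Rps3, which also has roles in DNA repair, was at 612 to 640 CPM in the E12.5 litters and at 575, 493, 263.6 and 372 CPM in the P0 litters, with -0.57 (adjusted p = 0.159). In each of these 3 genes the P0 litters lay below all E12.5 litters without the gene passing the test.

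Rps6, the substrate of the S6 kinases, was at 4.11 to 5.19 CPM at E12.5 and 3.79 to 5.05 at P0. Its log2 fold change was 0.01 (SE 0.369, adjusted p = 0.991, edgeR) and was -0.14 under upper quartile scaling. Of the windows of Rps6 83.6% also occur in other genes. Rpl5 and Rpl11, which bind Mdm2 when ribosome assembly is disturbed, had -0.65 (adjusted p = 0.366) and -0.40 (adjusted p = 0.492). Rpsa, also known as a laminin receptor, had -0.29 (adjusted p = 0.377), with 221 to 301 CPM at E12.5 and 169.5 to 250 at P0. Rps27a, made as a fusion with ubiquitin, had -0.42 (adjusted p = 0.313), and Rpl13a, which takes part in translational silencing after interferon-γ, had -0.44 (adjusted p = 0.270). The share of windows that also occur in other genes was 59.7% for Rpl11, 53.8% for Rps27a and 55.2% for Rpl13a.

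Like-named paralogs of core proteins were measured beside their partners. Rpl22 was at 162 to 226 CPM at E12.5 and at 88.6 to 191 at P0, with -0.44 (adjusted p = 0.241), and Rpl22l1 at 11.6 to 25.7 and 16.6 to 27.7 CPM, with 0.14 (adjusted p = 0.782). Rps27l, a target of p53, was at 58.3 to 75 CPM at E12.5 and 32.6 to 67.1 at P0, with -0.36 (adjusted p = 0.357), whereas Rps27 was at 0.846 to 5.43 and 0.721 to 4.12 CPM. Rps27 shares 98.4% of its windows with other genes and Rps27l 0%. Rpl7l1 had -0.34 (adjusted p = 0.280) and Rpl7 -0.05 (adjusted p = 0.923), and Rpl36al had 0.15 (adjusted p = 0.753) and Rpl36a -0.33 (adjusted p = 0.585). Rps4x had -0.22 (adjusted p = 0.595), the pseudogene Rps4l -0.57 (adjusted p = 0.153) and Rpl39 -0.31 (adjusted p = 0.328).

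The tissue-restricted paralogs were at or near the floor. Rpl3l, found mainly in striated muscle, had 0 counts in all E12.5 litters and 0 to 0.865 CPM at P0. Rpl10l, of the testis, had counts in NPD27 alone, at 0.433 CPM. Rpl39l, also abundant in testis, was at 0 to 1.89 CPM at E12.5 and at 0.235 to 2.67 at P0. These 3 share none of their windows with other genes.

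Measured levels differed by far more between the genes than between the stages, although a ribosome needs its proteins in equal numbers. Over the 83 tested genes the highest mean CPM was 644 times the lowest, and the 11 most abundant held most of the counts of the 89. Per kilobase of exons the highest were Rplp1 at 979, Rplp0 at 626 and Rps15 at 546 CPM per kilobase, and the lowest tested were Rps13 at 0.634, Rpl5 at 1.43 and Rpl35a at 2.41. Per kilobase of 1 main transcript, a length chosen after the values were seen, Rpl35a was at 16.4 and Rps13 at 2.89.

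Over the 89 genes, the level per kilobase of the main transcript ran lower with more shared sequence (Spearman's rho -0.351, not tested). Low levels also occurred with little shared sequence. Of the 31 genes with 50% or more of their windows shared with another gene, 11 were under 10 CPM, and of the 17 genes with under 10% shared, 3 were, the paralogs Rpl3l, Rpl10l and Rpl39l. Rps29, with 24.7% of its windows shared and 0.246 to 1.65 CPM at E12.5, lay near the floor too. In the 54 tested genes with under 50% shared the median log2 fold change was -0.49, with 50 negative, 5 called lower and none higher at an adjusted p under 0.05 in edgeR (16 at an unadjusted p under 0.05). In the 29 with 50% or more it was -0.27, with 22 negative, 1 called lower (Rps18) and 1 higher (Rpl3). The share called in either direction was 9.26% of the 54 genes and 6.9% of the 29, below the 27.9% of all genes tested. Of all genes 12.0% were lower and 16.0% higher, and 39.7% had an unadjusted p under 0.05.

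**Figure D5:**
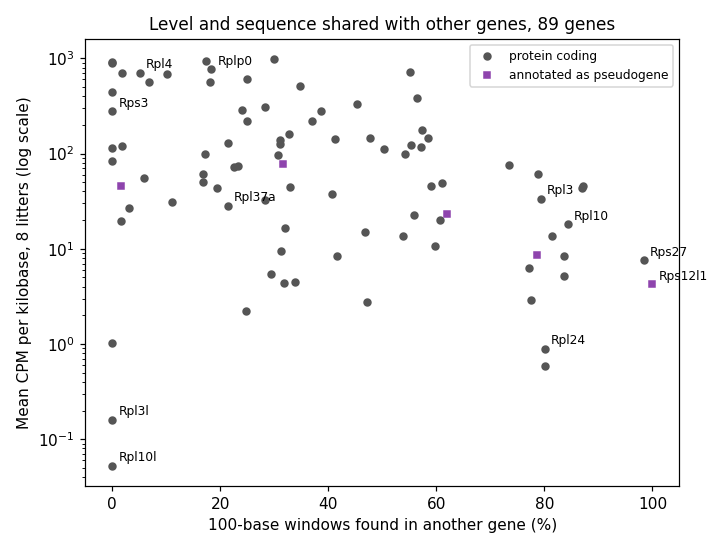
Mean CPM per kilobase of the main transcript over the 8 litters (log scale) against the percent of 100-base windows of that transcript found in another gene, for the 89 genes. Purple squares are the 5 genes annotated as pseudogenes. Genes above 70% sharing all lie under 100 on the vertical axis, and Rpl3l and Rpl10l lie low with no sharing.

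Within E12.5 the litters differed in an order of their own. NDP10.2 and NPD9.2, whose names share a suffix that the labels do not explain, lay apart from NPD3 and NPD4 in 47 of the 83 genes (56.6%), against 49.4% of all genes tested. They were lower for Rpl26 (mean 52.9 against 144 CPM), Rpl7 (263.8 against 469) and Rps3a1 (258.5 against 424), and higher for Rpl28 (17.7 against 7.65) and Rpl12 (29.5 against 14.4), genes picked after their values were seen. Without both of these litters the median log2 fold change of the tested genes was -0.38, and Rpl37a and Rps18 were the 2 genes called lower.

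The rest of the translation machinery moved less uniformly. Of ribosomal proteins with other names, Rack1 and Fau gave no call: Rack1, a scaffold on the small subunit, was at 984 to 1153 CPM at E12.5 and 607 to 1055 at P0 (log2 fold change -0.30, adjusted p = 0.435) and Fau, a ubiquitin-like fusion, had -0.95 (adjusted p = 0.430). Among 74 mitochondrial ribosomal protein genes tested, 2 were lower and none higher at an adjusted p under 0.05 (10 at an unadjusted p under 0.05), with a median of -0.17. Among 69 ribosome assembly factors 1 was lower (Nhp2) and 2 higher (Rrp1 and Sbds), with a median of 0.00. Of 15 genes of RNA polymerase I and its factors, which make ribosomal RNA, 2 were lower (Polr1c at -0.71, Znrd1 at -0.92). Of 38 initiation factors 1 was lower, the RNA helicase Eif4a1 at -0.87, and 1 higher, Eif1a at 0.95. Over all genes tested 12.0% were lower and 16.0% higher, or 27.9% in either direction. In either direction 2.7% of the mitochondrial ribosomal protein genes and 4.35% of the assembly factors were called. For the RNA polymerase I genes the share was 13.3%, all of it lower, and for the initiation factors 5.26%. The medians of the initiation factors (-0.02) and of the RNA polymerase I genes (-0.16) lay above that of the ribosomal protein genes, as did those of the mitochondrial ribosomal proteins and the assembly factors.

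Of the 7 elongation factors, Eef1a2, the form of elongation factor 1A found in muscle and neurons, rose from 0.781 to 7.62 CPM at E12.5 to 33.1 to 76.7 at P0 (log2 fold change 3.92, SE 0.579, adjusted p = 0.00108, edgeR). The common form Eef1a1 was at 2470.5 to 3497 CPM at E12.5 and 2391 to 3646 at P0 (0.11, adjusted p = 0.824). Eef2, which moves the ribosome along the mRNA, had 0.32 (adjusted p = 0.441). Eif5a, which helps at stalled sites, had -0.19 (adjusted p = 0.639), Eef1d had -0.32 (adjusted p = 0.301), and Eef1b2 and Eef1g had -0.56 (adjusted p = 0.121) and -0.58 (adjusted p = 0.0647).

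Of 7 other TOP mRNAs 3 were lower and 1 higher, where 27.9% of all genes were called in either direction, and their median log2 fold change was -0.23. Naca, part of the complex that meets the nascent chain, was at 195, 146, 107 and 201 CPM at E12.5 and at 51.6, 58.5, 47.4 and 62.3 CPM at P0. The groups stood far apart, with a log2 fold change of -1.56 (SE 0.252, adjusted p = 0.00142, edgeR). Hnrnpa1 (-1.21) and Cox7c (-1.19) also fell, Nap1l1 rose (1.24), and Tpt1 had -0.21 (adjusted p = 0.626). The 5 snoRNA host genes tested gave no call (none at an unadjusted p under 0.05 either, edgeR), with a median of -0.16.

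Of the 20 mTORC1, LARP1 and Myc family genes tested, which include regulators of the ribosomal protein genes, 3 were lower, 2 were higher and 15 did not pass. The share called, 25%, was near the 27.9% of all genes. Myc, which drives transcription of ribosomal genes, rose from 55.2, 43.9, 48.4 and 58.8 CPM at E12.5 to 81.0, 107, 135 and 136 CPM at P0 (log2 fold change 1.15, SE 0.235, adjusted p = 0.00446, edgeR), and its partner Max by 1.14 (adjusted p = 0.00364). Mycn fell, with 25.0 to 64.8 CPM at E12.5 and 3.06 to 9.25 at P0 (-2.51, SE 0.442, adjusted p = 0.0022), and Mycl, with 20.7 to 26.8 CPM at E12.5 and 0.303 to 8.96 at P0, had -3.07 (adjusted p = 0.0202). Rptor, the subunit that brings substrates to mTORC1, had -0.81 (adjusted p = 0.0297), while Mtor had -0.30 (adjusted p = 0.379) and Larp1, with 134 to 225 CPM at E12.5 and 119.5 to 231 at P0, had 0.02 (adjusted p = 0.964). Mxd1, an antagonist of Myc, was at 22.6 to 28.0 CPM at E12.5 and at 20.9, 32.4, 230 and 35.5 CPM at P0, where NPD28 alone stood out.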

How the data were processed

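RNA of 4 E12.5 and 4 P0 litters was sequenced by the authors from TotalScript libraries. The authors aligned the reads with STAR (2.4.0j in the submitters' processing notes) to GRCm38 and used htseq-count with Gencode M4 to obtain the deposited raw counts. The processing notes list mm9 beside GRCm38.p3, and the build named in the authors' methods, GRCm38, was taken here. Strandedness is not given in the sources used here, so reads of overlapping antisense genes cannot be told apart. The labels do not say that litters share a number, and p-values measure the spread between litters. Genes passing filterByExpr (minimum count 10, minimum total 15) were tested with edgeR 4.0.16 in R 4.3.3 (TMM, robust quasi-likelihood F-test, Benjamini-Hochberg), and the standard error is the fold change divided by the square root of F. DESeq2 1.42.0 and limma 3.58.1 (voom) served as alternatives, and the scripts were tested on simulated data. There the edgeR test missed most 2-fold changes, DESeq2 made a larger share of false calls than edgeR, and the limit set for recovery was replaced after edgeR missed it. CPM uses TMM library sizes. Positions, exon lengths and 100-base windows, matched on either gene's transcripts, come from Gencode M21. Symbols were matched for 42462 identifiers. The members and gene lists were chosen with earlier results of these data known. Named genes were 15 members with known roles, paralogs with their partners, the 5 highest and 5 lowest fold changes, the 3 of each in the fit relative to the family, the 3 highest and lowest levels per kilobase, and members of short lists. Rps26, Rps18, Rps10, Rps15a and others outside this rule were named after their values were seen.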

Additional observations from a re-analysis of the deposited data

Results flagged for a closer look

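Over the 4 litters of a stage, the sample with the largest gap to its neighbours was compared with Dixon's limit for the share of counts and for the named genes. Of 92 values checked, 8 passed the limit, where chance gives about 1 in 20. At E12.5, NDP10.2 stood apart with Rpl5 at 2.595 CPM (others 7.86 to 8.59), Rplp0 at 977.3 CPM (others 1035 to 1044) and Rpl39l at 1.887 CPM (others 0 to 0.195). NPD4 stood apart with Rpl24 at 1.451 CPM (others 0 to 0.246), and NPD9.2 with Rps27l at 75 CPM (others 58.3 to 60.3). At P0, NPD28 stood apart with Rpl38 at 0.2354 CPM (others 2.31 to 2.52) and Rps26 at 101.9 CPM (others 154.7 to 157.5), and NPD27 with Rpl10l at 0.4326 CPM (others 0). Rpl24, Rpl39l, Rpl10l and Rpl38 rest on few counts.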

How the results depend on the processing

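The median log2 fold change of the ribosomal protein genes stayed negative in every alternative run, from -0.56 under upper quartile scaling to -0.32 without NPD28. Upper quartile scaling moved the median of all genes to -0.11, and relative to it the ribosomal protein genes lay at -0.45, against -0.46 in the fit reported. The number called lower was less stable. It was 6 as reported, 15 with DESeq2, 14 with upper quartile scaling, 2 without both E12.5 litters with suffixed names, NDP10.2 and NPD9.2 (chosen after seeing the data) and 3 to 6 when 1 litter was left out, with 3 without NDP10.2 or NPD28. Rpl3 was the 1 gene higher, and 0 were without NDP10.2, without NPD9.2 or without both (0 to 1 over the litters left out). Without both, 2581 genes were called over all genes and 0 departed from the family, against 4321 and 3 as reported, and with 1 litter left out 1 to 2 departed. Fewer samples entered these fits. The share of counts was 1.803% at E12.5 with mitochondrially encoded and hemoglobin genes left out of the total, and 2.584% at E12.5 and 1.835% at P0 with the 100 largest other genes left out, which follows from the smaller total.

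Sign changes occurred in genes that were not called, and the cause was not tested. Rps6 went to -0.0075 with DESeq2, -0.012 with its size factors, -0.14 with upper quartile scaling, -0.25 with counts downsampled to the smallest library and -0.020 without mitochondrially encoded and hemoglobin genes. The downsampled values come from 1 random draw and move with it: another draw gave other calls in the family. Rplp0 went to -0.096 with upper quartile scaling, Rpl7 to 0.0032 with limma-voom. Without NDP10.2 and NPD9.2 Rpl38 was at 0.30, Rplp0 at -0.019 and Rps12 at -0.14. Over the fits that left out 1 litter, the log2 fold change ran for Rpl22l1 from -0.061 to 0.26, for Rpl36al from -0.0090 to 0.38, for Rpl38 from -0.38 to 0.29, for Rpl7 from -0.23 to 0.102, for Rplp0 from -0.097 to 0.16, for Rps12 from -0.056 to 0.52, for Rps12l1 from -0.044 to 0.58, for Rps13 from -0.53 to 0.15 and for Rps6 from -0.0597 to 0.051.

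No paired analysis was possible because the litters of the stages share no numbers in the labels. Rps13, Rpl5, Rpl35a, Rps15 and Rplp0 changed level per kilobase with the length used. For genes near the floor, depth limits what can be seen.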
